A study of Mus musculus with 16 samples.

Results

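Hedgehog signalling was followed through its 9 core genes: the ligands Shh, Ihh and Dhh, the receptor Ptch1, the ligand-binding inhibitor Hhip, the transducer Smo and the transcription factors Gli1, Gli2 and Gli3. These 9 genes were listed by name, out of 21887 protein-coding genes in the RefSeq table for GRCm38.p6 (mm10), the autosomes, X and Y included, and all 9 were found there. Peaks were collected over each gene and the 20 kb on either side of it, and a peak within 1 kb of an annotated gene end was counted as a gene-end peak. The data are ChIP-seq peak lists from CJ9 mouse embryonic stem cells that were wild type (WT) or carried a deletion in Arid4b (arid4b-delta), after 5 days of direction to endoderm or to mesoderm and 8 min of formaldehyde fixation. Arid4b encodes a subunit of a histone deacetylase corepressor complex. H3K4me3, H3K27me3 and H3K27ac were each profiled in both genotypes and both lineages, which gives 12 lists with 1 library per group. The extent of the Arid4b deletion, whether the arid4b-delta cells are 1 clone, and the factors that directed differentiation are not given in the labels.

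Hedgehog ligands are secreted proteins that bind Ptch1. Unbound Ptch1 keeps Smo, a membrane protein of the primary cilium, inactive, and ligand binding releases Smo, which turns the Gli factors towards activation of their targets. Gli1 and Ptch1 are themselves classic targets of the pathway, Gli3 acts largely as a repressor when no ligand is present, and Hhip binds ligands at the cell surface and limits their range. During development Shh is made by the notochord, the floor plate and the gut endoderm, Ihh by visceral endoderm and later by the gut and growing cartilage, and Dhh by Sertoli cells of the gonad and Schwann cells of peripheral nerve. H3K4me3 marks active and poised promoters, H3K27ac marks active promoters and enhancers, and H3K27me3 is laid down by Polycomb repressive complex 2. CpG-rich promoters that carry H3K4me3 and H3K27me3 together are called bivalent and are common at developmental genes in embryonic stem cells.

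The start regions of 7 of the 9 genes are in the RefSeq promoter table of build GRCm38.p6, each running from 250 bases before the start to 50 after it. The 5 printed here are of members that cover several of the kinds of gene-end call described below, and CpG dinucleotides are in capitals. That of Ptch1 is around a start 7725 bp inside its gene end, so the gene-end calls of Ptch1 do not lie at it. They read 5′ to 3′ on the gene's own strand, which is minus for Ptch1 (chr13:63565686-63565985), Ihh (chr1:74951623-74951922), Hhip (chr8:80057959-80058258) and Dhh (chr15:98898491-98898790), and plus for Gli3 (chr13:15463473-15463772).
Ptch1: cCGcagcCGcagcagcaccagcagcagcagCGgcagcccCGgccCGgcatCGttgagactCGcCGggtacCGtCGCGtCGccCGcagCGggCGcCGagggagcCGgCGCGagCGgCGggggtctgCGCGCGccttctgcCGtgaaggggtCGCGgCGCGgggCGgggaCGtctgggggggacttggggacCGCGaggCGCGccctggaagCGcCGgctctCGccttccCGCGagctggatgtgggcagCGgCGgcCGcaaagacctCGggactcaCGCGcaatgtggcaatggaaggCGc
Ihh: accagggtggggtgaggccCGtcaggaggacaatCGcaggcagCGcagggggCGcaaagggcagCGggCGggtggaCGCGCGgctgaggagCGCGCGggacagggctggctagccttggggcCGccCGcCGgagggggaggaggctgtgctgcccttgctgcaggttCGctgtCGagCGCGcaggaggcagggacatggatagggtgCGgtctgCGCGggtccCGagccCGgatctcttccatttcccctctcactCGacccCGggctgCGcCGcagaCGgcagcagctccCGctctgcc
Hhip: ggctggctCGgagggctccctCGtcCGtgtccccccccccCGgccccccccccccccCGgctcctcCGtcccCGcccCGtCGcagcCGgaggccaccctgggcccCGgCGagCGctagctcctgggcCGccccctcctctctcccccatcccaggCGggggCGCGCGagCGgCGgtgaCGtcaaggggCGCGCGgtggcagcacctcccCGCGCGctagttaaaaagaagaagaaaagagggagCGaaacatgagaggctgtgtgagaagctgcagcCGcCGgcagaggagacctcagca
Dhh: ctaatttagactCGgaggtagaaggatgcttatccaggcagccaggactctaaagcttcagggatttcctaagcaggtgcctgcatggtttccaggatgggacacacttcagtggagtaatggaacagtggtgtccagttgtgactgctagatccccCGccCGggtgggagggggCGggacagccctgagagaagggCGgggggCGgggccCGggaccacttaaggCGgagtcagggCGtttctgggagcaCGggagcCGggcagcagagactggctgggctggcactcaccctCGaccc
Gli3: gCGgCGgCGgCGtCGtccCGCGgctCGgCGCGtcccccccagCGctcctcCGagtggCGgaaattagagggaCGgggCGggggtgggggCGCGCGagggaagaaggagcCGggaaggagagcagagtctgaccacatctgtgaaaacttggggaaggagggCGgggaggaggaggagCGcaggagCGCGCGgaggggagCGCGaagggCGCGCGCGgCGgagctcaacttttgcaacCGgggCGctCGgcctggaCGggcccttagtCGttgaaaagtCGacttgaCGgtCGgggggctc

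The Ptch1 sequence held 47 CpG dinucleotides and the Gli3 sequence 39, more than 98.2% and 94.2% of the 21263 promoters of protein-coding genes in the table. Ihh and Hhip had 30 each and Gli2 28, Smo had 17, and Dhh had 12, close to the median of 13 over all promoters. The lower quartile of all promoters was 4 and the upper quartile 24, so 5 of the 7 members lay above the upper quartile. The Gli binding consensus GACCACCCA was searched on both strands and was in none of the 7 sequences, as against 0.179% of all promoters of the same length. Its inner part CCACCC, which lies within the consensus, occurred in every member sequence except that of Ptch1, and in 33.6% of all promoters. A TATAAA box was in none of the 7 and in 12.6% of all promoters, both strands searched. These matches describe the letters of the windows only.

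The files give peaks without read totals, so the depth behind each call, and with it the precision, is unknown. With 1 library per group nothing could be tested between groups, and no p-values are given. The lists held 21752 to 26852 H3K4me3 peaks, 6150 to 16660 H3K27me3 peaks and 12496 to 35884 H3K27ac peaks. For every mark and lineage, arid4b-delta had more peaks than WT. Fold enrichment and −log10 q are the values of the authors' peak caller for each peak and describe a peak within its own list. Markers of the labelled lineages were checked at gene ends: none of the 6 endoderm markers had H3K27ac in any library, and 5 or 6 of them carried H3K27me3 in each. Of the 8 mesoderm markers, T, Tbx6, Pdgfra and Foxc1 had H3K27ac in WT mesoderm, and none had it in the other 3 libraries. Of the pluripotency markers Pou5f1, Nanog and Sox2, 2 or 3 were acetylated in each library, and none of 4 fibroblast markers, chosen for feeder cells, was. The lists labelled endoderm thus lack H3K27ac at the defining endoderm genes.

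The 9 genes fell into groups by their gene-end marks. Smo, Gli2 and Gli3 had H3K4me3 and H3K27ac and no H3K27me3 at a gene end in all 4 conditions. These are the marks of active promoters, but for Gli2 that holds at the gene end only. Ihh, Dhh, Ptch1, Hhip and Gli1 carried H3K27me3 with H3K4me3 in most conditions, and Shh carried H3K27me3 only. Within 1 kb of its RefSeq table start, Gli2 had H3K27me3 in WT endoderm and in no other condition. H3K27me3 covered 45.5% of the H3K4me3 of the Gli2 locus in WT endoderm and 21.1% in arid4b-delta endoderm. In WT and arid4b-delta mesoderm the shares were 0% and 21.6%. It also covered 192 bp of H3K27ac there in WT endoderm alone. H3K4me3 lay at a gene end of 6 members in WT endoderm and of 8 in each of the other 3 conditions, where 53.3%, 58.6%, 55.9% and 59.7% of all genes had it in WT endoderm, arid4b-delta endoderm, WT mesoderm and arid4b-delta mesoderm. H3K27me3 lay at 6, 6, 5 and 6 members in the same order, where 14.4%, 17.2%, 9.34% and 16.3% of all genes had it. H3K27ac lay at 4, 3, 4 and 4 members, and at 26.6%, 26.4%, 29.6% and 31.5% of all genes.

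**Figure D1:**
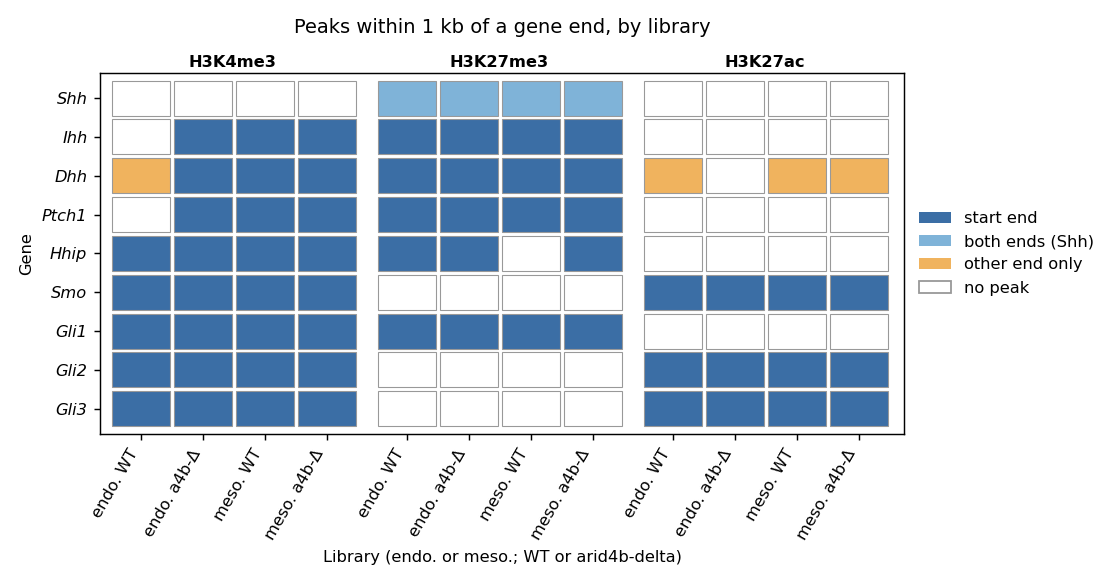
Presence of a peak within 1 kb of a gene end for the 9 genes (rows) in the 12 libraries (columns, grouped by mark; a4b-Δ stands for arid4b-delta). Dark blue is a peak at the end taken as the start, orange at the other end only, light blue at both ends of Shh, whose strand is not in the table, and white no peak; within a mark the columns differ at Ihh, Ptch1, Hhip and Dhh, where Dhh H3K4me3 in WT endoderm lies at the other end only.

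Members with both H3K4me3 and H3K27me3 at a gene end numbered 3 in WT endoderm (Dhh, Hhip and Gli1), 5 in arid4b-delta endoderm (with Ihh and Ptch1 in addition), 4 in WT mesoderm (Ihh, Dhh, Ptch1 and Gli1) and 5 in arid4b-delta mesoderm (Ihh, Dhh, Ptch1, Hhip and Gli1). Over all genes the same pair of marks was found at 10.1%, 14.2%, 7.64% and 14.2%. The marks of such a gene need not lie together. In WT endoderm the gene-end H3K4me3 of Dhh lay at its other end, beside Rhebl1, and its gene-end H3K27me3 at its start. For Hhip in WT endoderm the marks shared 19 bp. Counted at gene ends, the group with both marks grew from WT to arid4b-delta among the members, and so it did over all genes. Within 1 kb of the RefSeq table starts, both marks were at Ptch1, Hhip and Gli2 in WT endoderm. In arid4b-delta endoderm they were there at Ihh, Dhh and Hhip, so the group changed and did not grow. In mesoderm they were at Ihh, Dhh and Ptch1 in WT, with Hhip in addition in arid4b-delta.

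Shh, the ligand of the notochord and gut (gene 20423, chromosome 5, 28456840 to 28467101), lay whole, or nearly so, under a single H3K27me3 domain in every library. The domain was 14113 bp long in WT endoderm, 15157 bp in arid4b-delta endoderm, 11806 bp in WT mesoderm and 14004 bp in arid4b-delta mesoderm, with fold enrichment of 3.01, 3.64, 2.26 and 3.21. The WT mesoderm domain was the shortest of the 4, and the median peak lengths of these lists were 542, 523, 582.5 and 652 bp. No H3K4me3 peak came within 1 kb of either end of Shh. H3K4me3 lay inside the gene instead, 1590 to 2838 bp from its upper end, in all 4 libraries, with fold enrichment of 4.17 and 8.41 in WT and arid4b-delta endoderm and 5.94 and 10.2 in mesoderm. A further H3K4me3 region 8329 to 9151 bp from that end was in every library except WT endoderm. H3K4me3 covered 146 and 2336 bp of the Shh locus in WT and arid4b-delta endoderm, and 525 and 3176 bp in mesoderm. All of the H3K4me3 of the locus was inside H3K27me3 peaks in both WT libraries and in arid4b-delta endoderm, and 79.7% of it in arid4b-delta mesoderm.

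H3K27ac near Shh was listed in arid4b-delta only. A region beginning 17960 bp outside the upper gene end (chr5:28485061-28485606) had an H3K27ac peak in arid4b-delta endoderm (fold enrichment 8.75) and arid4b-delta mesoderm (10.4), and none in either WT library. The same stretch carried an H3K4me3 peak in arid4b-delta mesoderm (6.20). On the other side, 19673 to 19978 bp from the upper end and thus beyond the lower end, lay a weaker H3K27ac region (chr5:28447123-28447428) with fold enrichment of 6.80 and 5.78 in arid4b-delta endoderm and mesoderm. At this second region arid4b-delta endoderm also had H3K4me3 (4.24) and H3K27me3 (2.18) peaks, so all 3 marks were called at the same place there. A peak of 216 bp further out (5.65) was in arid4b-delta endoderm alone. No other protein-coding gene of the table lies within 20 kb of Shh.

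Ihh (gene 16147, chromosome 1, 74945315 to 74951672, minus strand) had H3K27me3 over its start in all 4 conditions. The domain measured 7910 and 8255 bp in WT and arid4b-delta endoderm, and 4737 and 6675 bp in mesoderm. H3K4me3 at the start was missing from the WT endoderm list, which had no H3K4me3 peak anywhere in the Ihh locus. In WT mesoderm it was a single peak of 843 bp with −log10 q of 9.38, ranked by fold enrichment 18887 of 21752 in its list. In arid4b-delta endoderm there were peaks of 449 and 453 bp (7.57 and 9.75) and in arid4b-delta mesoderm a peak of 1082 bp (10.02). Every H3K4me3 peak at the Ihh start lay inside the H3K27me3 domain, and no H3K27ac peak was listed within 20 kb of Ihh in any library. The start sequence of Ihh printed above is thus one that carried H3K27me3 throughout, with H3K4me3 called in 3 of 4 lists.

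Dhh (gene 13363, chromosome 15, 98881615 to 98898562, minus strand), with the fewest CpG dinucleotides of the 7 start sequences, had H3K27me3 within 1 kb of its start in all 4 conditions, in peaks of 6453, 6947, 4740 and 6284 bp in WT endoderm, arid4b-delta endoderm, WT mesoderm and arid4b-delta mesoderm. H3K4me3 at the start was absent in WT endoderm and covered 162 bp in WT mesoderm (fold enrichment 3.17, ranked 21413 of 21752). It covered 755 bp in arid4b-delta endoderm (6.09) and 745 bp in arid4b-delta mesoderm (7.22). Further inside the gene, H3K4me3 regions 2261 to 3043 bp and 3990 to 4653 bp from the start had peaks in all 4 conditions. In WT endoderm their fold enrichment was 4.41 and 6.89. These inner peaks lay within the H3K27me3 peaks. H3K27ac near Dhh lay elsewhere. An end of Rhebl1, a small GTPase gene, lies next to the other end of Dhh, and all H3K27ac peaks counted at a gene end of Dhh were within 1 kb of that Rhebl1 end. They measured 430 bp in WT endoderm (4.09), 570 bp in WT mesoderm (10.5) and, in arid4b-delta mesoderm, 741 and 146 bp (9.19 and 5.46), with none in arid4b-delta endoderm. Dhh itself had no H3K27ac at its start in any library.

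Ptch1, the Hedgehog receptor and a target gene of the pathway (gene 19206, chromosome 13, 63508328 to 63573460, minus strand), has its RefSeq table start 7725 bp inside the annotated gene end. Around the table start H3K4me3 was broad in all 4 libraries: the longest peak there was 2095 bp in WT endoderm (fold enrichment 9.89), 4407 bp in arid4b-delta endoderm (13.1), 3464 bp in WT mesoderm (14.03) and 4277 bp in arid4b-delta mesoderm (25.02). The call that differed was at the outer gene end. There WT endoderm had no H3K4me3 peak, WT mesoderm had one of 800 bp (10.2), arid4b-delta endoderm had peaks of 1042 and 383 bp (12.4 and 7.21), and arid4b-delta mesoderm had peaks of 1196 and 398 bp (9.78 and 9.89). The absence of Ptch1 from the WT endoderm count is therefore an absence at the outer end, not at the table start printed above.

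H3K27me3 at Ptch1 lay mainly over the outer gene end. A domain of 7789 bp in WT endoderm (fold enrichment 3.22), 7897 bp in arid4b-delta endoderm (2.02) and 7893 bp in arid4b-delta mesoderm (2.05) reached over that end. In WT mesoderm the same stretch held separate peaks of 1574, 471 and 536 bp (1.93, 1.73 and 2.09), with −log10 q between 0.980 and 1.15. The locus had 9815 and 7897 bp of H3K27me3 in WT and arid4b-delta endoderm, and 2833 and 9067 bp in mesoderm, so WT mesoderm stood below the other 3 libraries. H3K27ac lay inside the gene 9883 to 10330 bp from the outer end (chr13:63563130-63563577), near the inner edge of the broad H3K4me3, in WT endoderm (6.92), WT mesoderm (8.72) and arid4b-delta mesoderm (7.35). It was not listed in arid4b-delta endoderm. In arid4b-delta mesoderm alone, a pair of peaks of 201 bp each lay 42533 to 43170 bp into the gene (10.4 and 5.62). Whether these positions are exonic or intronic is not known from the gene table.

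Hhip (gene 15245, chromosome 8, 79965850 to 80058060, minus strand) had H3K4me3 at its start in all 4 libraries, with peaks of 740 bp in WT endoderm (fold enrichment 7.16), 978 bp in arid4b-delta endoderm (15.8), 934 bp in WT mesoderm (9.47) and 1080 bp in arid4b-delta mesoderm (15.2). Each arid4b-delta library had a further peak upstream of the start, of 332 and 343 bp. H3K27me3 was the mark that differed: WT mesoderm had no H3K27me3 peak within 20 kb of Hhip. WT endoderm had 1 gene-end peak of 317 bp with −log10 q of 1.01, arid4b-delta endoderm 1 of 1772 bp (2.45), and arid4b-delta mesoderm peaks of 877 and 856 bp (1.10 and 0.974). By fold enrichment the gene-end peaks ranked 5146 of 10326 in WT endoderm, 7253 of 16660 in arid4b-delta endoderm, and 8151 and 7160 of 9863 in arid4b-delta mesoderm. The WT mesoderm list is the shortest of the H3K27me3 lists, with 6150 peaks. No H3K27ac peak came near the Hhip start in any library.

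Smo (gene 319757, chromosome 6, 29735497 to 29761366, plus strand) had H3K4me3 over its start and H3K27ac within 1 kb of it in every library. The H3K27ac peak measured 562 and 739 bp in WT and arid4b-delta endoderm (fold enrichment 12.5 and 9.78) and 973 and 936 bp in mesoderm, where it ranked 1455 of 12496 and 2173 of 22747. H3K27me3 was absent from both ends of Smo. A short region inside the gene, 12329 to 13480 bp from the start, had an H3K27me3 peak in all 4 libraries (1.87, 1.79, 1.94 and 1.58). Small H3K27ac peaks fell on it in both arid4b-delta libraries (3.46 in endoderm, 2.60 and 3.16 in mesoderm). By fold enrichment these H3K27ac peaks ranked 35756 of 35884 in endoderm, and 22739 and 22694 of 22747 in mesoderm.

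**Figure D2:**
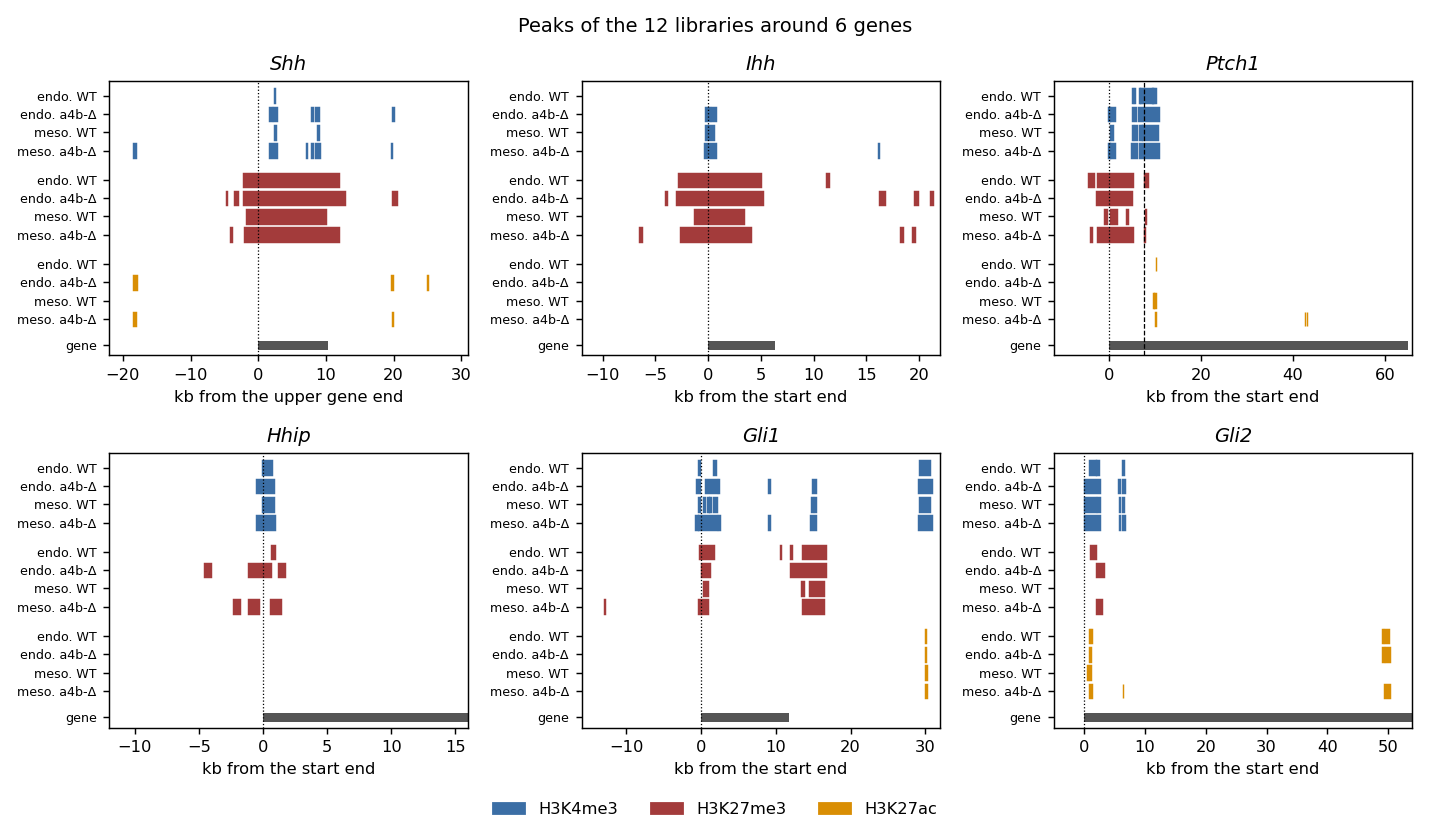
Peaks of the 12 libraries (rows, coloured by mark) around 6 genes, with kb from the gene end taken as the start on the horizontal axis and the gene body as a grey bar; for Shh the distance is from the upper gene end, and the dashed line at Ptch1 is the RefSeq table start. The H3K27me3 domain over Shh is in all 4 libraries, the start of Ihh lacks H3K4me3 in WT endoderm, and the stronger H3K27ac region deep inside Gli2 lacks a peak in WT mesoderm.

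Gli1, a transcriptional activator and a target of the pathway (gene 14632, chromosome 10, 127329882 to 127341579), had H3K4me3 and H3K27me3 at its upper end in all 4 conditions and H3K27ac at neither end in any. H3K4me3 at that end was 1 peak of 207 bp in WT endoderm (fold enrichment 8.23) and 3 peaks of 183 to 186 bp in WT mesoderm (3.89 to 5.18). In arid4b-delta the longest peak was 1597 bp in endoderm (12.4) and 2129 bp in mesoderm (18.04). These peaks reached further than 1 kb into the gene. Over that inner stretch WT endoderm had a separate H3K4me3 peak of 435 bp (4.82), and WT mesoderm had peaks of 558 and 282 bp (8.48 and 6.22). H3K27me3 peaks within 1 kb of the same end measured 2067 and 1196 bp in WT and arid4b-delta endoderm and 693 and 1225 bp in mesoderm, with −log10 q from 0.596 to 1.17. By fold enrichment they lay between 67.2% and 84.4% of the way down their lists. The H3K27ac peaks of the Gli1 locus all lay at the end of the neighbouring gene Mars1, a methionine tRNA synthetase gene.

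Gli2, the main activator of the pathway (gene 14633, chromosome 1, 118834061 to 119054405, minus strand), had H3K4me3 and H3K27ac at its start in all 4 libraries. The H3K4me3 peaks measured 1123 and 2552 bp in WT and arid4b-delta endoderm (fold enrichment 10.5 and 17.2) and 1989 and 2631 bp in mesoderm (10.8 and 15.4). H3K27ac peaks there were 251 and 277 bp long in endoderm, 417 and 180 bp in WT mesoderm and 583 bp in arid4b-delta mesoderm. H3K27me3 lay outside the 1 kb window of the gene end, inside the gene, and in WT endoderm it was within 1 kb of the RefSeq table start. Its peak ran from 1006 to 1899 bp from the gene end in WT endoderm (1.71), from 1864 to 3316 bp in arid4b-delta endoderm (3.55) and from 1930 to 3005 bp in arid4b-delta mesoderm (1.85), and WT mesoderm had none. The WT endoderm and arid4b-delta mesoderm peaks thus share no base. H3K27me3 and H3K4me3 shared 892 and 692 bp in WT and arid4b-delta endoderm, 0 bp in WT mesoderm and 728 bp in arid4b-delta mesoderm.

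A strong H3K27ac region lay deep inside Gli2, 49303 to 50302 bp from its upper end (chr1:119004103-119005102). It had a peak in WT endoderm (fold enrichment 12.9), arid4b-delta endoderm (11.9) and arid4b-delta mesoderm (13.3), and none in WT mesoderm. No H3K4me3 and no H3K27me3 peak was listed there. The arid4b-delta mesoderm library therefore shared this region with the endoderm libraries and not with WT mesoderm. A weaker H3K27ac region beside it (chr1:119005139-119005447) was in WT endoderm (7.27) and arid4b-delta endoderm (5.65), and in neither mesoderm library. In the same arid4b-delta mesoderm library, none of the 8 mesoderm markers and all 3 pluripotency markers had H3K27ac, against 4 and 2 in WT mesoderm, and their part in the Gli2 result was not tested. Fewer cells with a mark and less of it per cell cannot be told apart in bulk lists.

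Gli3 (gene 14634, chromosome 13, 15463723 to 15730026, plus strand) had no H3K27me3 peak within 20 kb in any library, alone among the 9 genes. H3K4me3 over its start was broad: the longest peak measured 2342 and 2721 bp in WT and arid4b-delta endoderm (fold enrichment 11.3 and 26.4), and 2515 and 2853 bp in mesoderm (14.5 and 24.1). H3K27ac covered 1305 and 1266 bp of the locus in WT and arid4b-delta endoderm and 1730 and 1458 bp in mesoderm, nearly all of it at the start. In WT mesoderm the start held a single peak of 1584 bp, ranked 943 of 12496. No gene-end call of Gli3 differed between the 4 conditions.

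The first question of the design is which genes carry a mark at a gene end in one genotype only. H3K4me3 was in arid4b-delta only at Ihh and Ptch1 in endoderm, 22.2% of the members against 5.37% of all genes, and at no member in mesoderm, where 3.92% of all genes were called. No member had H3K4me3 in WT only (0.101% and 0.119% of all genes in endoderm and mesoderm). H3K27me3 differed at no member in endoderm, where the shares of all genes were 4.89% for arid4b-delta alone and 2.05% for WT alone. In mesoderm it was in arid4b-delta only at Hhip, 11.1% of the members against 7.68% of all genes, and in WT only at none (0.726%). H3K27ac was in WT only at Dhh in endoderm (4.70% of all genes), and this is the peak beside Rhebl1. No member was in arid4b-delta only for H3K27ac in endoderm (4.49%), and none differed in mesoderm (5.62% of all genes for arid4b-delta alone and 3.71% for WT alone). With 9 genes, 1 or 2 calls are a count of named genes and no rate. With the longer list of each pair shortened to its peaks of highest fold, to match the other in length, Ihh and Ptch1 kept their H3K4me3 call. The H3K27me3 call at Hhip was lost, and Ptch1 and Gli1 were then in WT only in mesoderm. Among the upper 50% of each list, H3K4me3 was in arid4b-delta only at Dhh, Ptch1, Hhip and Gli1 in endoderm, and no longer at Ihh.

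Counted around the RefSeq table starts, for the 7 members and 17492 genes listed there, the genes called were partly others. H3K4me3 in endoderm was in arid4b-delta only at Ihh and Dhh (4.59% of the table's genes) and in WT only at none (0.0686%), and in mesoderm it differed at no member (3.11% and 0.0972%). Ptch1, marked at its table start in every list, was no longer called. H3K27me3 in endoderm was in WT only at Ptch1 and Gli2 (1.86%) and in arid4b-delta only at none (4.25%). In mesoderm it was in arid4b-delta only at Hhip (6.94%) and in WT only at none (0.577%). H3K27ac differed at no member, where the shares of genes for arid4b-delta alone and WT alone were 4.34% and 4.72% for endoderm, and for mesoderm 5.68% and 3.71%.

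The comparison of lineages within a genotype gave a similar short list. In WT, H3K4me3 was in mesoderm only at Ihh and Ptch1 (3.15% of all genes) and in endoderm only at no member (0.548%), and the WT endoderm list is in both this comparison and the one between genotypes. In arid4b-delta no member differed in H3K4me3 (0.338% of all genes in endoderm only and 1.48% in mesoderm only). H3K27me3 was in endoderm only at Hhip in WT (6.08%) and in mesoderm only at none (1.01%), and differed at no member in arid4b-delta (3.31% and 2.37%). H3K27ac differed at no member in WT (3.39% and 6.36%), and in arid4b-delta was in mesoderm only at Dhh (7.43%) and in endoderm only at none (2.36%). The genotype and lineage comparisons share libraries and are no independent evidence of each other.

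Coverage of the whole loci followed the lists as a whole. More of the gene and its flanks was under H3K4me3 in arid4b-delta than in WT for all 9 members in endoderm and all 9 in mesoderm, but this held for 99.0% and 97.5% of all genes covered in either list, so it is not a result about the members. H3K27me3 covered more in arid4b-delta at 7 of 8 covered members in each lineage, against 77.9% of all genes in endoderm and 88.0% in mesoderm. The exceptions were Ptch1 in endoderm and Smo in mesoderm. The median change over the 8 covered members was 526.5 bp in endoderm and 1892.5 bp in mesoderm, beside 537 and 1115 bp over all covered genes. With lists matched in length, 3 members rather than 7 had more H3K27me3 in arid4b-delta mesoderm (Shh, Ihh and Dhh), so Ptch1 was no longer among them. H3K27ac covered more in arid4b-delta at 3 members in endoderm (Shh, Hhip and Smo) and less at 5 (59.1% of all genes covered more), and at 4 members in mesoderm (Shh, Dhh, Gli1 and Gli2) and less at 2 (63.1%). The loci of Dhh, Smo, Gli1, Ihh and Ptch1 hold ends or bodies of other genes, whose peaks are included.

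**Figure D3:**
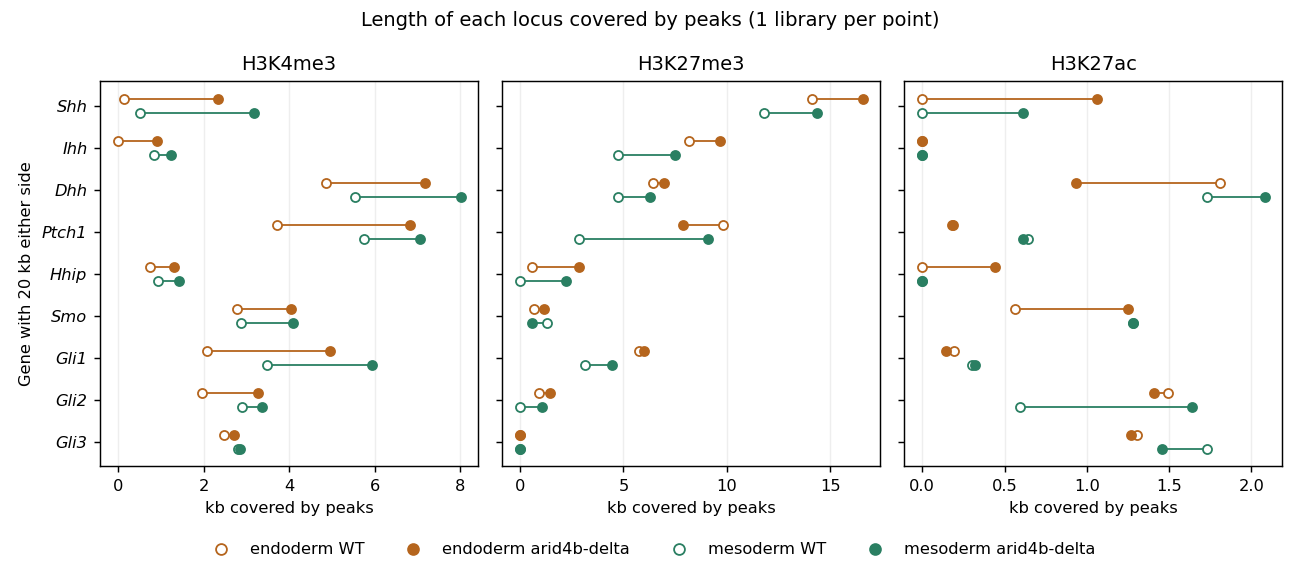
Length of each gene with 20 kb either side that is covered by peaks, in kb, with 1 library per point (open WT, filled arid4b-delta; brown endoderm, green mesoderm) and a line joining the genotypes of a lineage. H3K4me3 lies to the right in arid4b-delta for all 9 genes, while H3K27me3 at Ptch1 moves left in endoderm (9815 to 7897 bp) and right in mesoderm (2833 to 9067 bp), the latter lost with lists matched in length.

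Away from the ends of members and of other genes, the 9 loci held 19 separate H3K27ac regions, with overlapping peaks of the libraries merged, of which 1 was present in all 4 libraries. That region lies in the flank of Dhh, in the body of Kmt2d. In endoderm 8 of the 19 were found in arid4b-delta alone and 1 in WT alone, and in mesoderm 8 and 3. The 3 regions in arid4b-delta only in both lineages were the pair that flanks Shh and the one inside Smo that lies on H3K27me3. The Smo peaks were near the bottom of their lists by fold enrichment. H3K4me3 had 19 such regions, with 7 found in arid4b-delta alone and 0 in WT alone, for each lineage. The arid4b-delta H3K27ac lists held 35884 and 22747 peaks against 14216 and 12496 in WT, so the arid4b-delta lists were also the longer ones. The same region counts were not made over all genes, so they give no result about these 9 loci.

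The rest of the pathway was covered by a list of 43 genes in 4 roles. The 6 genes of ligand processing and release (Hhat, Disp1, Disp2 and Scube1 to Scube3) had no gene-end H3K27ac in any library, and 3 or 4 of them had H3K27me3 in each. The 5 co-receptors and ligand-binding proteins (Cdon, Boc, Gas1, Lrp2 and Gpc3) all had H3K4me3 in every library and 2 had H3K27ac in each. H3K27me3 was at 3 of them in WT endoderm, 2 in arid4b-delta endoderm, 0 in WT mesoderm and 3 in arid4b-delta mesoderm. Of the 16 genes of the cilium and of intracellular transduction, among them Sufu, Kif7 and Gpr161, 15 had H3K4me3 in each library and 5, 8, 10 and 9 had H3K27ac in the same order, while 4, 3, 0 and 1 had H3K27me3. Of the 16 targets, such as Foxf1, Nkx2-2 and Olig2, 13, 14, 10 and 14 had H3K27me3 and 3, 3, 4 and 3 had H3K27ac. Over all genes, H3K4me3 lay at a gene end of 53.3%, 58.6%, 55.9% and 59.7% in the same order. For H3K27me3 the shares of all genes were 14.4%, 17.2%, 9.34% and 16.3%, and for H3K27ac 26.6%, 26.4%, 29.6% and 31.5%. With 5 to 16 genes in a role, these are counts of listed genes and no rates.

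**Figure D4:**
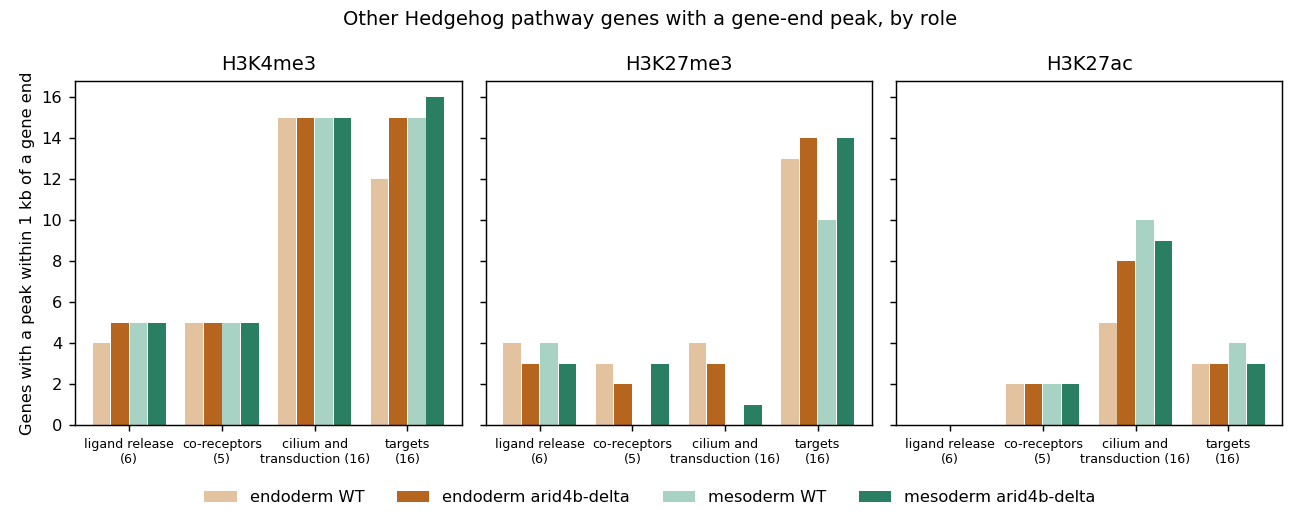
Number of the 43 other Hedgehog pathway genes, by role, with a peak within 1 kb of a gene end in each of the 12 libraries (bars start at 0; the number of genes in a role is under its name). H3K27me3 was at 10 to 14 of the 16 targets and H3K27ac at 5 to 10 of the 16 cilium and transduction genes, depending on the library. Of all genes, 9.34% to 17.2% had H3K27me3 and 26.4% to 31.5% had H3K27ac.

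Between genotypes, H3K27me3 in mesoderm was in arid4b-delta only at 8 of the 43 genes, 18.6% against 7.68% of all genes. It was in WT only at 1, or 2.33% against 0.726%. The 8 were Boc, Lrp2, Gpc3, Spop, Ccnd1, Ccnd2, Bcl2 and Bmp4, and the WT-only gene was Hhat. With lists matched in length these counts became 3 and 4, so the direction did not hold. In endoderm 2 of the 43 genes, or 4.65%, were marked in arid4b-delta alone, against 4.89% of all genes. Marked in WT alone were 4, or 9.30%, against 2.05%. With peak lists of equal length the endoderm counts were 0 and 9. The direction was the same in both lineages at 3 genes, and the share of all genes for this was not counted. Hhat, the acyltransferase that adds palmitate to Hedgehog ligands, was marked in WT only (fold enrichment 3.44 in endoderm and 2.20 in mesoderm). Gpc3, a glypican that binds Hedgehog ligands, and Bcl2, an inhibitor of cell death, were marked in arid4b-delta only (1.45 and 1.66, and 1.70 and 1.74). The median fold enrichment of these arid4b-delta lists was 2.03 in endoderm and 2.33 in mesoderm. With peak lists of equal length neither Gpc3 nor Bcl2 kept the endoderm call. H3K4me3 in endoderm was in arid4b-delta only at 4 genes, 9.30% against 5.37%, namely Hhat, Nkx2-2, Osr1 and Grem1. In mesoderm it was in arid4b-delta only at Bmp4, 2.33% against 3.92% of all genes, and at none with peak lists of equal length.

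H3K27ac differed at few of the 43 genes. In endoderm Gpr161, an inhibitory receptor of the cilium (5.67), Arl13b, a ciliary GTPase (5.92), and Prkaca, the catalytic subunit of protein kinase A (9.35), were acetylated in arid4b-delta only. That is 6.98% against 4.49% of all genes, and none was acetylated in WT only (4.70% of all genes). All 3 were acetylated in both genotypes in mesoderm, and with peak lists of equal length the endoderm count fell to 1, with 1 in WT only. In mesoderm Sufu, the inhibitor that holds Gli proteins in the cytoplasm (5.56), and Bcl2 (3.85) were acetylated in WT only. That is 4.65% of the list against 3.71% of all genes. None was acetylated in arid4b-delta only, where the share of all genes was 5.62%.

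Likeness was the number of the 12 lists in which a gene's gene-end call differed from a member's, and of tied genes the earliest in the order of the list are named. Smo, Gli2 and Gli3 had 1 pattern in common, and 7 genes of the wider list differed from it in 0 lists, of which Cdon, Csnk1a1 and Gsk3b come first. This pattern is frequent, with 3900 other genes, or 17.8%. Ihh and Ptch1 also matched each other in every list, and Nkx2-2, Osr1 and Grem1 differed from them in 0 lists. Their pattern was found at 263 other genes (1.20%). Gli1 had the pattern of 10 genes of the wider list, beginning with Scube1, Scube2 and Scube3, and of 999 other genes in all (4.56%). Hhip had that of Boc and Ccnd2, and of 378 other genes in all (1.73%), while Scube1 came first of 14 genes that differed from it in 1 list. Shh was nearest to Bmp4 (2 lists), then to Kif3a and Nkx2-2, the first of 4 genes at 3 lists. Dhh was nearest to Spop and Ccnd1 (2 lists each), then to Scube1, the first of 10 genes at 3 lists. The Dhh pattern was found at 7 other genes, fewer than for the other 8 members, and it combines its own start with the Rhebl1 end.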

How the data were processed

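The 12 deposited peak lists were read as they stand. Bowtie2, Picard, MACS2 and build mm10 are named in the submitters' processing notes, with versions and settings not given in the sources used here, and the peak names in the deposited files carry the tag rmdup, the usual mark of duplicate removal. H3K4me3 and H3K27ac came as narrow and H3K27me3 as broad peaks, called per library. The deposited columns are a score and a fold enrichment (a ratio) per peak, the authors' −log10 p and −log10 q, and in narrow lists the summit position in bp, another unit of the authors. Only fold and −log10 q were used, to describe, rank or filter peaks within a list. The 4 input samples were not analysed here.

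Python 3.11.15 with pandas 2.3.3 joined peaks to RefSeq genes (GRCm38.p6). A gene end counted as carrying a mark if at least 1 bp of a peak fell no further than 1000 bp from it, and a locus was the gene with 20000 bp either side. The start end came from the strand in the promoter table, given for 17492 genes, otherwise from the end with more H3K4me3. The overlap code was tested on simulated peaks. Every member was named. Of the wider list, genes were named whose state differed the same way in both lineages or, for H3K27ac, in either lineage, at most 12 per mark, with up to 3 most like genes per member by the number of the 12 lists in which they differ. Other wider-list genes were named after their values were seen. The members and lists were chosen with earlier results of these data known. 1 gene of the wider list is not reported here.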

Additional observations from a re-analysis of the deposited data

Results flagged for a closer look

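Covered length moved in opposite directions between the genotypes of the 2 lineages at 5 combinations of gene and mark, each with 1 library per group, and the differences were not tested. H3K27me3 over the Ptch1 locus was 9815 bp in WT and 7897 bp in arid4b-delta endoderm, and 2833 and 9067 bp in mesoderm, which puts the mesoderm change 8152 bp above the endoderm change. With lists matched in length Ptch1 no longer had more H3K27me3 in arid4b-delta mesoderm. H3K27me3 over the Smo locus was 689 and 1152 bp in WT and arid4b-delta endoderm and 1295 and 581 bp in mesoderm, a difference of -1177 bp. With lists matched in length, or with the upper 50% of each list, Smo no longer had more H3K27me3 in arid4b-delta endoderm. H3K27ac over the Dhh locus was 1806 and 937 bp in endoderm and 1731 and 2084 bp in mesoderm, a difference of 1222 bp that includes peaks at Rhebl1, Lmbr1l and Kmt2d. H3K27ac over the Gli2 locus was 1490 and 1405 bp in WT and arid4b-delta endoderm and 597 and 1640 bp in mesoderm, a difference of 1128 bp, with a peak of 911 bp inside the gene in arid4b-delta mesoderm and none there in WT mesoderm. H3K27ac over the Gli1 locus, all at the Mars1 end, was 193 and 146 bp in endoderm and 304 and 319 bp in mesoderm, a difference of 62 bp. With flanks of 10000 bp or 50000 bp Gli1 no longer had more H3K27ac in arid4b-delta mesoderm.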

How the results depend on the processing

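No paired analysis was possible because each group has 1 library. Over 42 counts and 246 alternative values, 198 stayed within 1.5 times the reported count and 48 moved, 14 of them with lists matched in length and 14 with the upper 50% of each list. Most counts of members in one genotype or lineage only were reported as 0, and a 0 that stayed 0 is among the 198. A count that stayed could also name other genes. At the RefSeq table starts, H3K4me3 in endoderm was in arid4b-delta only at Ihh and Dhh, rather than at Ihh and Ptch1. Flanks of 10000 or 50000 bp moved none. Except where the alternative itself shows it (fewer peaks kept, or another window), the cause was not tested.

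With lists matched in length, H3K27me3 was in WT only at 1 member in endoderm (reported 0) and at 2 in mesoderm (0), in arid4b-delta only at 0 in mesoderm (1), and in mesoderm only at 1 in WT (0) and 1 in arid4b-delta (0). H3K27ac was in mesoderm only at 1 member in WT (0). Of the wider list, H3K4me3 was in arid4b-delta only at 0 genes in mesoderm (1). H3K27me3 in endoderm was in arid4b-delta only at 0 (2) and in WT only at 9 (4), and in mesoderm at 3 (8) and 4 (1). H3K27ac in endoderm was in arid4b-delta only at 1 (3) and in WT only at 1 (0). More H3K27me3 covered the locus in arid4b-delta mesoderm at 3 members (7).

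With the upper 50% of each list, H3K4me3 was in arid4b-delta only at 4 members in endoderm (2) and 1 in mesoderm (0), in WT only at 1 in mesoderm (0), and in endoderm only at 1 in arid4b-delta (0). H3K27me3 in endoderm was in arid4b-delta only at 1 (0) and in WT only at 1 (0), and in mesoderm at 0 (1) and 1 (0). Between lineages it was in endoderm only at 2 in WT (1) and 2 in arid4b-delta (0), and in mesoderm only at 1 in WT (0). H3K27ac was in WT only at 0 in endoderm (1) and in mesoderm only at 1 in WT (0), and 4 members had more H3K27me3 in arid4b-delta mesoderm (7).

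With a window of 500 bp, H3K27me3 was in arid4b-delta only at 1 member in endoderm (0) and in endoderm only at 0 in WT (1), and H3K27ac was in WT only at 1 in mesoderm (0) and in mesoderm only at 1 in WT (0). With 2500 bp, H3K27me3 was in arid4b-delta only at 2 in mesoderm (1) and in endoderm only at 2 in WT (1). Of the wider list, H3K4me3 was in arid4b-delta only at 0 in mesoderm (1) and H3K27me3 in WT only at 2 in endoderm (4). With a stricter −log10 q (4 in narrow and 1 in broad lists), H3K27me3 was in arid4b-delta only at 3 in mesoderm (1), in endoderm only at 2 in WT (1) and in mesoderm only at 1 in arid4b-delta (0).

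H3K27ac at Dhh, in WT only at 1 member in endoderm and in mesoderm only at 1 in arid4b-delta, went to 0 and 0 with the start end only, and to 2 and 2 with at least 200 bp covered, which adds Gli2. Windows at the RefSeq table start, chosen after seeing the data, also gave 0 and 0 for these. There H3K27me3 was in WT only at 2 members in endoderm (0), in endoderm only at 2 in WT (1) and in mesoderm only at 1 in arid4b-delta (0). Depth is unknown, so a peak that is not listed sets no upper limit on the mark.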

Other observations

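Many H3K27ac peaks share the same fold enrichment to every digit with others of their list, in both genotypes. In WT endoderm the value of a Gli2 peak (7.27) was shared by 122 of 14216 peaks. In WT mesoderm that of a Gli3 peak (5.31) was shared by 205 of 12496. The value of 10.4 of the region outside the upper end of Shh in arid4b-delta mesoderm was shared by 122 of the 22747 peaks of that list, among them the stronger of the peaks inside Ptch1. The value of the weaker Shh region in arid4b-delta mesoderm (5.78) was shared by 886 peaks, and in arid4b-delta endoderm (6.80) by 1057 of 35884. The stronger region deep inside Gli2 had a value shared by 6 peaks in arid4b-delta mesoderm (13.3) and by 65 in arid4b-delta endoderm (11.9).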
